A study of Mus musculus with 9 samples.

Results

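The interleukin-1 (IL-1) family genes, their receptors and the inflammasome genes were examined in lung fibroblasts of aged mice after bleomycin injury. The 10 genes were chosen by name, as rows of the deposited table of 43346 genes, and comprised the ligands Il1a, Il1b and Il33, the receptor antagonist Il1rn, the signalling receptor genes Il1r1, Il1rap and Il1rl1, the decoy receptor Il1r2, and the inflammasome genes Nlrp3 and Casp1. All 10 were found, each as 1 row, and all 10 passed the filter for testing. The cells came from Col1a1-GFP mice, male and on an FVB background per the study's methods, at an age of 72 weeks per the labels. GFP expression in this reporter is driven by the collagen I promoter, and GFP+, CD45-, CD31-, EpCAM- cells were sorted from digested lungs on day 30 after a single intratracheal instillation. The 4 aged sham mice received saline and the 5 aged bleo mice bleomycin, with 1 library of polyadenylated RNA per mouse.

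IL-1α and IL-1β, the products of Il1a and Il1b, signal through the receptor IL-1R1 together with the accessory chain IL-1RAP, and lead through the adaptor MyD88 and IRAK kinases to NF-κB. IL-33, a nuclear alarmin of barrier and stromal cells, uses the receptor ST2, encoded by Il1rl1, with the same accessory chain. IL-1Ra, encoded by Il1rn, and the decoy IL-1R2 oppose IL-1, while NLRP3 assembles an inflammasome in which caspase-1 cleaves pro-IL-1β. In the lung, myeloid cells are a known source of IL-1β, fibroblasts and alveolar epithelium express IL-33, and ST2 is best known from mast cells and type 2 innate lymphoid cells.

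Counts summed to between 49921946 and 68260600 per library. Col1a1 and Col3a1, which encode fibrillar collagens, lay at 4150.5 CPM or more in every group mean. Col1a1 gives no independent evidence of identity, since the collagen I promoter drives the reporter used for sorting. Both genes belong to a list of 8 fibroblast genes that did not move as a set. By the thresholds given below, 4 of the 8 were higher in aged bleo and 2 were lower. The lower ones were Dcn and Tcf21, with log2 fold changes of -1.54 and -1.10. In contrast, 6 epithelial genes summed to at most 95.6 CPM and 5 endothelial genes to at most 22.8 CPM in any library. Among them, the alveolar epithelial genes Ager and Sftpc had the highest group means, at 19.8 and 18.8 CPM, while Epcam had group means of 0.592 and 0.667 CPM. CPM are read counts scaled to library size, normalized by TMM. Leukocyte transcripts remained in the sort. The summed level of 9 neutrophil genes spanned 152 to 940.5 CPM among aged sham mice, 84.9 to 865 CPM among aged bleo mice, and was highest within each group in aged sham 4 and aged bleo 4. The summed level of 10 macrophage genes spanned 172 to 302 CPM among aged sham mice and 519.8 to 1706 CPM among aged bleo mice. In a sorted population, fewer cells of a type and less RNA per cell cannot be told apart.

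The gene that changed most was Il1rl1, and the sequences of its promoters are shown because RefSeq gives it a pair of start sites, whose transcripts the deposited gene counts do not separate. The windows span 250 bases before to 50 bases after each start (RefSeq, GRCm38.p6). The promoters of Il1a and Il1b, neighbours on chromosome 2 that behaved differently after bleomycin, are shown for comparison. Capitals mark matches on either strand to AP-1 (TGANTCA), C/EBP (TTNNGNAA), NFAT (GGAAAA), the TATA box (TATAAA) or the NF-κB consensus.
Il1rl1, upstream start (chr1:40429320-40429619, plus strand): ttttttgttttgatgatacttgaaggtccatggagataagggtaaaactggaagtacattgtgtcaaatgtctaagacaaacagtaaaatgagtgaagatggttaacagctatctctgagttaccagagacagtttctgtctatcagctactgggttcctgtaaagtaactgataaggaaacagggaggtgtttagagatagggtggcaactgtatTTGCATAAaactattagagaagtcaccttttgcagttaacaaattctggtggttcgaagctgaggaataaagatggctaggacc
Il1rl1, downstream start (chr1:40439379-40439678, plus strand): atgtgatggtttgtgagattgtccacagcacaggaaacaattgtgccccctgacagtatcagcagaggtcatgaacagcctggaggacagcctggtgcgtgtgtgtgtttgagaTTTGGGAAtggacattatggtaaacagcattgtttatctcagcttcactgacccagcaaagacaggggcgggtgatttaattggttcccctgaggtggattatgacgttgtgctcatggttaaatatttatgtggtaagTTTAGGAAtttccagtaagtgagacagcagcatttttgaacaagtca
Il1a (chr2:129309923-129310222, minus strand): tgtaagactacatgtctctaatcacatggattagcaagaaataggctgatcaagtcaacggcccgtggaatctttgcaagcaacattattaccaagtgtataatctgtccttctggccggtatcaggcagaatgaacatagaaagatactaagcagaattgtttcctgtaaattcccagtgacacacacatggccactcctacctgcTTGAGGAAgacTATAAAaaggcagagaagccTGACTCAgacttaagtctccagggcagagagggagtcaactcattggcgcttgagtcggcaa
Il1b (chr2:129371090-129371389, minus strand): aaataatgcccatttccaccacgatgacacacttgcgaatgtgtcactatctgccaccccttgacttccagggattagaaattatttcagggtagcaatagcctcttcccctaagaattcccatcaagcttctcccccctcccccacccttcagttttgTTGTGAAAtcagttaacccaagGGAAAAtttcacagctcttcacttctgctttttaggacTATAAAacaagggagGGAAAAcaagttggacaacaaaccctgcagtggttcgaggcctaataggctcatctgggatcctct

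A TATA box began 32 bases before the start of Il1a and 31 bases before that of Il1b, and neither Il1rl1 window held one. Il1a had 1 AP-1 match, 12 bases before its start, and Il1b had 2 NFAT matches, at 69 and 16 bases before its start. All 4 windows held at least 1 C/EBP match, and none held the NF-κB consensus. Among 32851 promoter windows of the same length, 7.81% held the AP-1 letters, 40.7% the C/EBP letters, 23.4% the NFAT letters, 13.6% the TATA box and 8.46% the NF-κB consensus. These matches describe letters in a window and were not tested as binding sites.

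After bleomycin, Il1rl1 and Il1a transcripts rose in the sorted cells, and Il33 fell, a call that depended on single libraries. Il1rl1 rose 34.0-fold, Il1a rose by 1.32 on the log2 scale, and Il33 fell by 0.60 on the log2 scale. A gene was called when its FDR was under 0.10 and its fold change over 1.5, with edgeR's quasi-likelihood test and Benjamini-Hochberg adjustment over the 16877 genes tested. Of the 10 genes, 2 were called higher and 1 lower in aged bleo. Over all genes tested, 12.3% were called higher and 11.5% lower, so that the number called among the 10 was near the background of 23.8%. In 3 of the 10 genes, every aged bleo library lay above every aged sham library, against 16.1% of all genes tested. The median log2 fold change was -0.15 for the 10 genes and 0.01 for all genes tested.

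**Figure D1:**
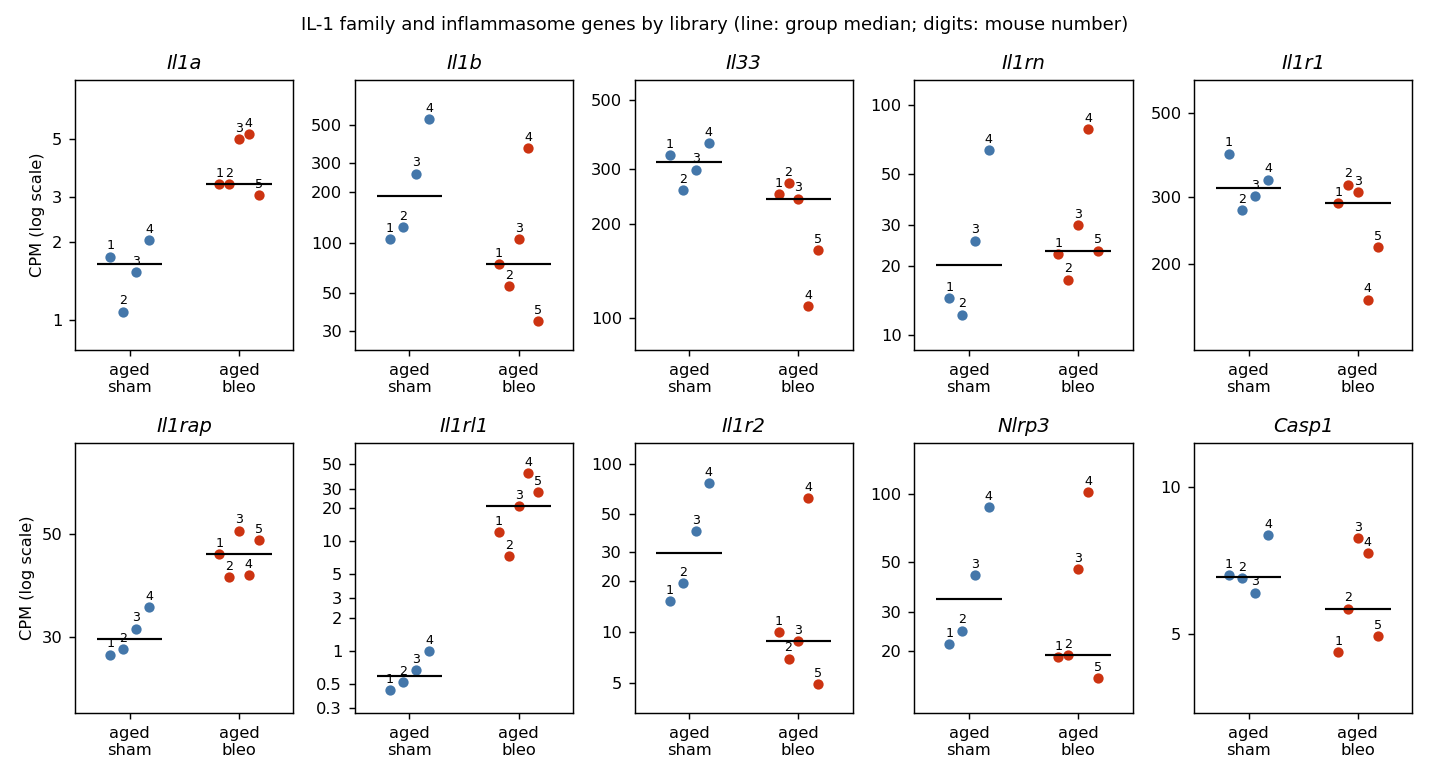
Levels of the 10 genes in each library, in CPM on a log scale, for aged sham (blue) and aged bleo (red), with the group median as a line and the mouse number above each point. Il1rl1, Il1a and Il1rap separate the groups, and aged sham 4 and aged bleo 4 stand highest in their groups for Il1b, Il1rn, Il1r2 and Nlrp3.

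Among the ligands, Il1a (ENSMUSG00000027399, GRCm38 chromosome 2, 129299610 to 129309972), encoding a cytokine that acts as an alarm signal when cells are damaged, was scarce. It was at 1.76, 1.08, 1.54 and 2.03 CPM in aged sham 1 to 4, and at 3.36, 3.36, 5.00, 5.23 and 3.04 CPM in aged bleo 1 to 5. Every injured mouse thus lay above every uninjured one. The rise of 1.32 on the log2 scale had a standard error of 0.25 (FDR 0.00456). The call was kept with each library left out in turn. In the annotation, 222 exonic bases of Il1a are shared with Gm14023 on the opposite strand, and the use of strand in counting is not given in the sources used here.

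Il1b (ENSMUSG00000027398, chromosome 2, 129364570 to 129371139), the ligand released by inflammasome activity, varied widely between mice of the same group. Aged sham 1 to 4 had 105, 124, 258 and 543 CPM, and aged bleo 1 to 5 had 74.6, 55.5, 105, 367 and 34.3 CPM. The highest library exceeded the lowest 5.19-fold within aged sham and 10.7-fold within aged bleo. Between groups the log2 fold change was -1.02, with a 95% interval from -2.66 to 0.62 (FDR 0.307). Without aged bleo 4, the value was -1.95 (FDR 0.0271), which passed both thresholds, and without aged sham 4 it was -0.35 (FDR 0.750). In the annotation, 25 exonic bases of Il1b are shared with Il1bos on the opposite strand.

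Il33 (ENSMUSG00000024810, chromosome 19, 29925114 to 29960718) had the highest median per length of the 3 ligands in both groups, although Il1b exceeded it in aged sham 3, aged sham 4 and aged bleo 4. It was at 333, 258, 299.7 and 365 CPM in aged sham 1 to 4, and at 250.2, 271, 242, 109 and 165 CPM in aged bleo 1 to 5. The ranges overlapped in aged sham 2 and aged bleo 2, and aged bleo 4 was lowest. This gave a log2 fold change of -0.60 with a standard error of 0.25 (FDR 0.0886), just past both thresholds. This call was lost in 6 of the 9 fits that left out 1 library, where the log2 fold change ranged from -0.71 to -0.44. It was also lost without aged bleo 4 and aged sham 4 together, at -0.37 (FDR 0.142).

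The antagonist gene Il1rn (ENSMUSG00000026981, chromosome 2, 24336853 to 24351494) was, like Il1b, highest in aged sham 4 and aged bleo 4. Its levels were 14.4, 12.2, 25.7 and 64.0 CPM in aged sham 1 to 4, and 22.4, 17.4, 30.1, 78.6 and 23.2 CPM in aged bleo 1 to 5. The groups overlapped, with a log2 fold change of 0.24 and a 95% interval from -1.07 to 1.56 (FDR 0.777). Its sign was negative without aged bleo 4, at -0.33, and without aged sham 2, at -0.01.

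Measured within each library, the ratio of Il1rn to Il1b did separate the groups. Aged sham 1 to 4 had Il1rn read counts equal to 13.8%, 9.82%, 9.97% and 11.8% of their Il1b counts, whereas aged bleo 1 to 5 had 30.0%, 31.3%, 28.7%, 21.4% and 67.8%. The lowest ratio after bleomycin exceeded the highest after saline, including aged sham 4 and aged bleo 4, where both genes were highest. The mean log2 ratio was -1.60 ± 0.62 (SD, n = 5) in aged bleo and -3.15 ± 0.23 (SD, n = 4) in aged sham. The difference of 1.56 corresponded to a 2.94-fold higher ratio (exact permutation test, two-sided, p = 0.0159, which is the lowest value these group sizes can give). When aged bleo 4 and aged sham 4 were removed, the difference was 1.74 (exact permutation p = 0.0571, again the lowest value the group sizes can give). The part of leftover leukocytes in this ratio was not tested.

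Among the signalling receptors, Il1rl1 (ENSMUSG00000026069, chromosome 1, 40429570 to 40465415), the receptor for IL-33, showed the widest separation. Aged sham 1 to 4 were at 0.436, 0.513, 0.662 and 0.987 CPM, on 27 to 49 reads per library. Aged bleo 1 to 5 were at 12.0, 7.30, 21.0, 41.5 and 27.9 CPM. The lowest injured mouse, aged bleo 2, therefore lay well above the highest uninjured one, and levels among injured mice differed up to 5.69-fold. Il1rl1 had a log2 fold change of 5.09 with a standard error of 0.58 (FDR 3.55e-04), and it ranged from 4.71 to 5.35 with each library left out. The annotation (GENCODE M21) lists 5 transcripts of the gene with coding lengths of up to 1701 bases, among them ones of 1011 bases. Membrane-bound and soluble ST2 are known products of this gene, and the gene counts do not tell them apart.

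Some markers of cells known for ST2 were also higher in aged bleo. Of 4 mast cell and basophil genes tested, 3 were called higher. Ms4a2, a chain of the IgE receptor, was at 0.520, 3.14, 9.91, 10.1 and 2.85 CPM in aged bleo 1 to 5 and at most 0.233 CPM in aged sham. Mcpt8, a basophil protease, was at 0.0929, 1.05, 7.61, 4.17 and 1.35 CPM in aged bleo 1 to 5 and at most 0.205 CPM in aged sham. Ms4a2 and Mcpt8 had at most 13 and 12 reads in any aged sham library and passed the filter only through aged bleo. The 3 called genes can thus not be weighed fairly against the 12.3% called higher over all genes tested. Cpa3, a mast cell and basophil protease, reached at most 3.49 CPM in aged sham and lay at 4.43 to 7.30 CPM after bleomycin. The mast cell proteases Mcpt4, Tpsb2 and Cma1, which were too low to test, reached at most 1.07 CPM in any library. The fourth tested gene, Hdc, was not called (log2 fold change -0.01, FDR 0.990), and the summed level of all 7 genes, in which Hdc dominates, spanned 49.4 to 198 CPM in aged sham, against 45.5 to 254 CPM after bleomycin. Of 6 T cell and innate lymphoid genes, Il7r and Il13 were called higher, both with overlapping groups. Il13 had at most 22 reads in any aged sham library and also passed the filter only through aged bleo. Gata3 was not called (log2 fold change -0.57, FDR 0.473), nor were Cd3e, Cd3g and Cd4 (FDR 0.934, 0.218 and 0.602). Il7r was at 23.2 CPM in aged bleo 4 and at most 4.96 CPM in the other aged bleo libraries. The summed level of these 6 genes spanned 5.78 to 8.20 CPM in aged sham, against 2.64 to 46.8 CPM after bleomycin. In aged bleo 1, Il1rl1 was at 12.0 CPM, that sum was at its lowest and Mcpt8 was at 0.0929 CPM. Ms4a2 and Cpa3 were at 0.520 and 5.26 CPM in that library, above every aged sham library. The part of these cells in the level of Il1rl1 was not tested.

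Il1r1 (ENSMUSG00000026072, chromosome 1, 40225080 to 40317257), the signalling receptor for both IL-1 forms, was abundant before and after injury. It was at 391, 277, 302 and 334 CPM in aged sham 1 to 4 and at 290.1, 324, 309, 161 and 221 CPM in aged bleo 1 to 5. Aged bleo 4 and aged bleo 5 were lowest, and the remaining injured mice lay within the range of the uninjured ones. Il1r1 had a log2 fold change of -0.32, with a 95% interval from -0.78 to 0.14 (FDR 0.248).

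Il1rap (ENSMUSG00000022514, chromosome 16, 26581704 to 26730117), which encodes the chain shared by the IL-1 and IL-33 receptors, was higher in all injured mice. The values were 27.5, 28.2, 31.2 and 34.7 CPM in aged sham 1 to 4 and 45.2, 40.4, 50.9, 40.8 and 48.5 CPM in aged bleo 1 to 5. The highest exceeded the lowest library by only 1.26-fold in either group. The log2 fold change of 0.57, with a standard error of 0.10, passed the FDR threshold (FDR 0.00321) but stayed just under a fold change of 1.5. It passed both thresholds in 4 of the 9 fits that left out 1 library. In the annotation, 552 exonic bases of Il1rap are shared with Gm20319 on the opposite strand.

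The decoy receptor Il1r2 (ENSMUSG00000026073, chromosome 1, 40074079 to 40125231) varied with Il1b. It was at 15.2, 19.5, 39.8 and 77.0 CPM in aged sham 1 to 4, and at 10.0, 6.96, 8.81, 62.8 and 4.90 CPM in aged bleo 1 to 5. All injured mice but aged bleo 4 lay below every uninjured mouse. Over all libraries the log2 fold change was -1.01, with a 95% interval from -2.82 to 0.80 (FDR 0.356), with -2.31 (FDR 0.00977) without aged bleo 4 and -0.41 (FDR 0.750) without aged sham 4. Relative to Il1r1, aged sham 1 to 4 had 0.0389, 0.0703, 0.132 and 0.231 Il1r2 reads per Il1r1 read, and aged bleo 1 to 5 had 0.0345, 0.0215, 0.0286, 0.391 and 0.0222. The mean log2 ratio differed by -1.09 (two-sided exact permutation test, p = 0.286). Without aged bleo 4 it differed by -1.87 (exact permutation p = 0.0286, the lowest value these group sizes can give). Aged bleo 4 was the library that stood apart on this same ratio, so the p without it depends on that choice.

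**Figure D2:**
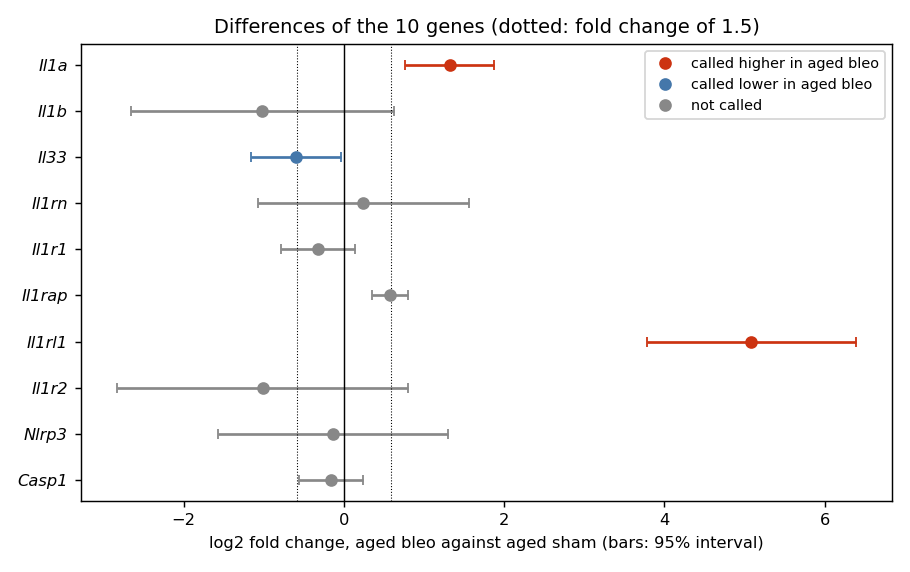
Log2 fold change of each gene between aged bleo and aged sham with its 95% interval, coloured by whether both thresholds were passed. Il1rl1 at 5.09 lies apart from the others, Il1rap has a narrow interval next to the dotted line for a fold change of 1.5, and the intervals of Il1b, Il1r2, Il1rn and Nlrp3 are wide and include 0.

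The inflammasome genes did not separate the groups. Nlrp3 (ENSMUSG00000032691, chromosome 11, 59541568 to 59566956), the sensor, was at 21.5, 24.7, 43.7 and 87.4 CPM in aged sham 1 to 4 and at 18.8, 19.2, 46.3, 102 and 15.1 CPM in aged bleo 1 to 5. Its log2 fold change was -0.13 with a standard error of 0.64 (FDR 0.890), and its sign changed in 4 of the 9 fits that left out 1 library. Casp1 (ENSMUSG00000025888, chromosome 9, 5298517 to 5307265), the protease, was at 6.62, 6.51, 6.09 and 7.98 CPM in aged sham 1 to 4 and at 4.61, 5.65, 7.86, 7.33 and 4.96 CPM in aged bleo 1 to 5. For Casp1 the log2 fold change was -0.16, with a narrower 95% interval from -0.56 to 0.24 (FDR 0.516).

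Levels can be compared between genes per length, for which the deposited FPKM values were used. In aged sham, Il33 had the highest median at 46.2 FPKM, followed by Il1b at 42.5 and Il1r1 at 20.8 FPKM. Neighbours among these 3 overlapped in their ranges, while Il1r1 lay above Il1r2 (median 6.59 FPKM) in all libraries. Nlrp3 followed at 3.58, Casp1 at 1.85, Il1rn at 1.53 and Il1rap at 1.11 FPKM. Il1a at 0.352 and Il1rl1 at 0.0362 FPKM were lowest, and their ranges overlapped neither with each other nor with that of Il1rap. In aged bleo, the order began with Il33 at 35.0, Il1r1 at 19.7 and Il1b at 16.9 FPKM. Il1rl1, with a median of 1.27 FPKM, then stood above Il1a at 0.737 FPKM, and every neighbour in the order overlapped with the next.

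Within groups, several of the 10 genes rose and fell together across mice. After the group mean was taken from each log2 CPM value, Pearson's r over the 9 libraries was 0.97 between Il1b and Il1r2, 0.97 between Il1b and Nlrp3, and 0.92 between Il1rn and Nlrp3. Il33 and Il1r1 varied together at 0.96, and both ran against Il1rl1, at -0.70 and -0.74. Il1rap reached at most 0.42 with any of the others. These values share libraries and are given as a description of 9 mice. In both groups the mouse numbered 4 was highest for Il1b, Il1r2, Nlrp3 and Il1rn, as it was for the neutrophil genes.

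**Figure D3:**
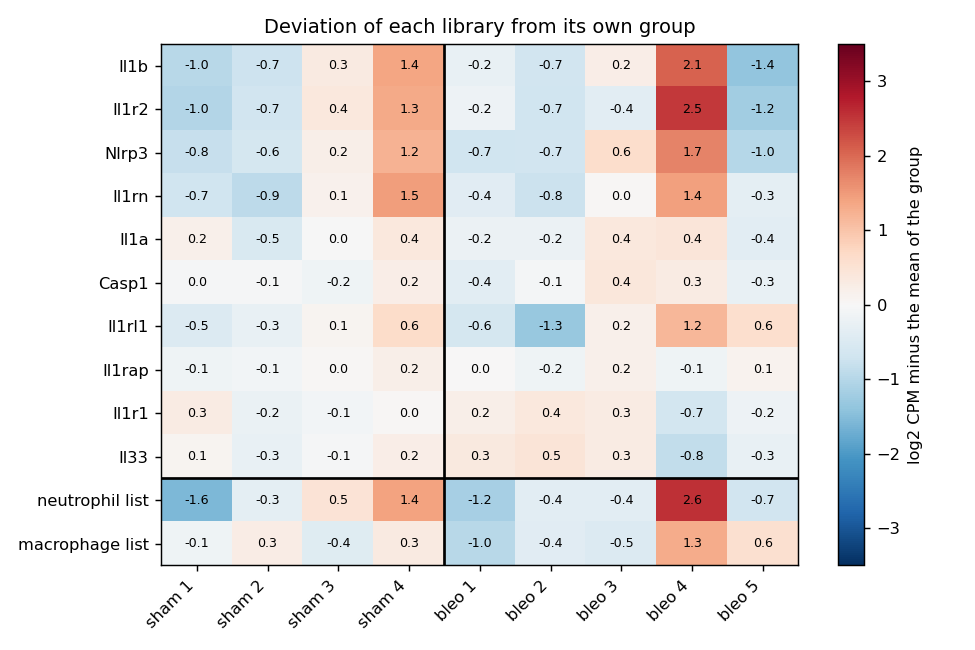
Log2 CPM of each gene minus the mean of its group, per library, above the same for the mean level of the tested neutrophil and macrophage genes (colour and printed value: difference in log2 CPM). The columns of sham 4 and bleo 4 are high for Il1b, Il1r2, Nlrp3, Il1rn and the neutrophil list, and bleo 4 is low for Il1r1 and Il33.

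The relation of each gene to the mean log2 CPM of 8 tested neutrophil genes and of the 10 macrophage genes was computed, as 20 relations in all. With the neutrophil level, Nlrp3 gave Pearson's r = 0.90 (exact permutation p = 0.00189, adjusted 0.0126) and Spearman's rho = 0.77 (exact permutation p = 0.0214, adjusted 0.0856). Il1r2 gave r = 0.85 (exact permutation p = 0.00424, adjusted 0.0174) and rho = 0.70 (exact permutation p = 0.0433, adjusted 0.124). Il1b gave r = 0.84 (exact permutation p = 0.00503, adjusted 0.0174) and rho = 0.78 (exact permutation p = 0.0172, adjusted 0.0856), and Il1rn r = 0.83 (exact permutation p = 0.00882, adjusted 0.0252) and rho = 0.60 (exact permutation p = 0.0968, adjusted 0.242). Within treatments, r was 0.90 for Nlrp3, 0.93 for Il1r2, 0.90 for Il1b and 0.88 for Il1rn (exact permutation within treatments, adjusted p = 0.0486, 0.0532, 0.0532 and 0.0556). With aged bleo 4 and aged sham 4 removed, whose neutrophil levels were the most distant from the median, r over the other 7 was 0.63, 0.59, 0.61 and 0.20, and none of the 20 relations had an adjusted p under 0.05. The relation of Il1rn thus rested on those libraries, and those of the other 3 genes did not pass the threshold without them. The remaining 6 genes had no adjusted p under 0.05 with the neutrophil level, pooled or within treatments.

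The summed macrophage level did not overlap between the groups, so that only r within treatments is described here. Within treatments, r with the macrophage level was -0.85 for Il33, -0.83 for Il1r1 and 0.74 for Il1rl1 (exact permutation within treatments, adjusted p = 0.0984, 0.0984 and 0.173). Whether leukocyte transcripts set the levels of these genes was not tested.

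The genes whose group-centred log2 CPM was most like that of each of the 10 were sought among 15268 other tested genes with a mean of at least 1 CPM, with Pearson's r over 9 libraries as the measure. For Il1b they were 4833407H14Rik, Mxd1 and Sh2d3c (r from 0.995 to 0.999). Those of Il1r2 were Trem1, Cd101 and Themis2 (r from 0.994 to 0.996), and those of Nlrp3 were Hcar2, Rab44 and Cyp4f18 (r from 0.993 to 0.996). Il1rn was most like Gcnt1, Gm9025 and Lck (r from 0.988 to 0.990). For Il33 the genes were Cyp1b1, Pla2g4a and Tmem64 (r from 0.987 to 0.990), and for Il1r1 they were Psd3, Gm16083 and Cd55 (r near 0.986). Il1rl1 was closest to Arl4c, Kif21b and Rwdd2b (r from 0.970 to 0.973), Il1a to Csf2rb2, Atxn7l1 and Xpo6 (r from 0.950 to 0.986), Casp1 to Gm28989 and Slc39a4 (r of 0.976 and 0.974), and Il1rap to Gm17090, Map2k6 and Gm27995 (r from 0.910 to 0.935).

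On chromosome 1, Il1r2, Il1r1, Il1rl2, Il1rl1, Il18r1 and Il18rap lie in this order, with the start of Il18rap 441 kb from that of Il1r2. Neighbours in this receptor cluster moved in opposite directions. Il1rl2, encoding the receptor for IL-36, fell from 165 ± 15.8 CPM (SD, n = 4) to 83.7 ± 15.8 CPM (SD, n = 5), lower in every injured mouse (log2 fold change -0.98, standard error 0.14, FDR 0.00116). Il1rl1, the next gene, rose as given above. Il18r1 and Il18rap, the chains of the IL-18 receptor, were not called, with log2 fold changes of 1.01 (95% interval from -0.34 to 2.37) and 0.26 (95% interval from -1.38 to 1.90).

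**Figure D4:**
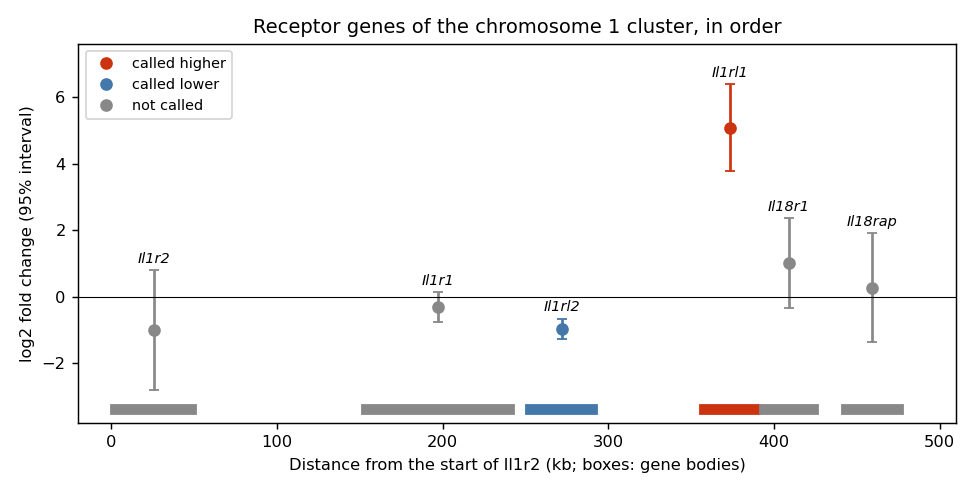
Log2 fold change with its 95% interval for the 6 receptor genes of the chromosome 1 cluster, against the distance from the start of Il1r2 in kb, with boxes for the gene bodies. Il1rl2 at -0.98 and Il1rl1 at 5.09 are adjacent, and the intervals of the other 4 genes include 0.

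Of 13 other IL-1 family genes, 8 were tested, and Il1rl2 was the only one called, against 23.8% of all genes tested. The 5 that were too low to test were Il1f5, Il1f6, Il1f8, Il1rapl1 and Il1rapl2. The median log2 fold change of the 8 was -0.25, against 0.01 over all genes tested. Of 17 further inflammasome genes, 15 were tested, with 1 called higher, 2 lower and a median of 0.22, a share near the 23.8% called over all genes tested. Txnip, which encodes a thioredoxin-binding protein, fell from 519 ± 133 CPM (SD, n = 4) to 271 ± 53.9 CPM (SD, n = 5) (log2 fold change -0.94, FDR 0.00630), and Casp4, an inflammatory caspase that senses cytosolic lipopolysaccharide, from 41.9 ± 7.80 to 25.3 ± 4.60 CPM (log2 fold change -0.73, FDR 0.00823). Pycard, the adaptor that links NLRP3 to caspase-1, was higher at 9.07 ± 2.44 CPM against 5.93 ± 0.65 CPM in aged sham (log2 fold change 0.61, FDR 0.0368), with overlapping groups, and this call was lost without aged bleo 4 and, in a separate fit, without aged sham 3.

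All 26 IL-1 signalling genes were tested, and 4 were called lower and 0 higher in aged bleo by edgeR. The shares over all genes tested were 11.5% lower and 12.3% higher. At the same time, the groups did not overlap in 15 of the 26, with 9 lower and 6 higher in aged bleo, against 32.2% of all genes tested. Of these 15, only Myd88, Irak3 and Nfkbiz passed the fold threshold. The share over all genes was not matched for level. Most of the 26 had aged sham means above 15.4 CPM, the median over all genes tested. Myd88, the adaptor of IL-1 receptors, fell from 124 ± 5.90 CPM (SD, n = 4) to 58.6 ± 8.05 CPM (SD, n = 5) (log2 fold change -1.09, standard error 0.10, FDR 1.33e-04). Irak3, an inhibitor of this pathway, fell from 69.8 ± 8.08 to 27.7 ± 9.15 CPM (log2 fold change -1.33, FDR 0.00310). Nfkbiz and Tnfaip3, feedback regulators of NF-κB, fell by 0.92 and 0.62 on the log2 scale (FDR 0.00263 and 0.0435). The median of the 26 was -0.14.

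Genes known to be induced by IL-1 in fibroblasts moved both ways. Of 23 listed, 22 were tested, with 8 called higher, 7 lower and a median log2 fold change of 0.04, against 12.3% higher and 11.5% lower over all genes tested. Of the 8, Mmp13 and Nos2 had group means of 0.122 and 0.104 CPM in aged sham and passed the filter only through aged bleo. The 8 can thus not be weighed fairly against the 12.3%. The 4 listed genes with the smallest FDR were all higher. Mmp13, a collagenase, rose from 0.122 ± 0.037 CPM (SD, n = 4) to 12.0 ± 2.65 CPM (SD, n = 5), with a log2 fold change of 6.59. Il11, a fibrogenic cytokine of the IL-6 family, rose from 1.18 ± 0.24 to 27.0 ± 11.3 CPM (log2 fold change 4.52). The acute phase gene Saa3 and the cytokine Lif had log2 fold changes of 3.87 and 2.16. The 7 lower genes, named after their values were seen, were Ptgs2, Il6, Has1, Cxcl1, Icam1, Ccl7 and Tslp. Of these, Ptgs2, the inducible cyclooxygenase, fell from 1207 ± 177 CPM (SD, n = 4) to 427 ± 93.2 CPM (SD, n = 5).

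**Figure D5:**
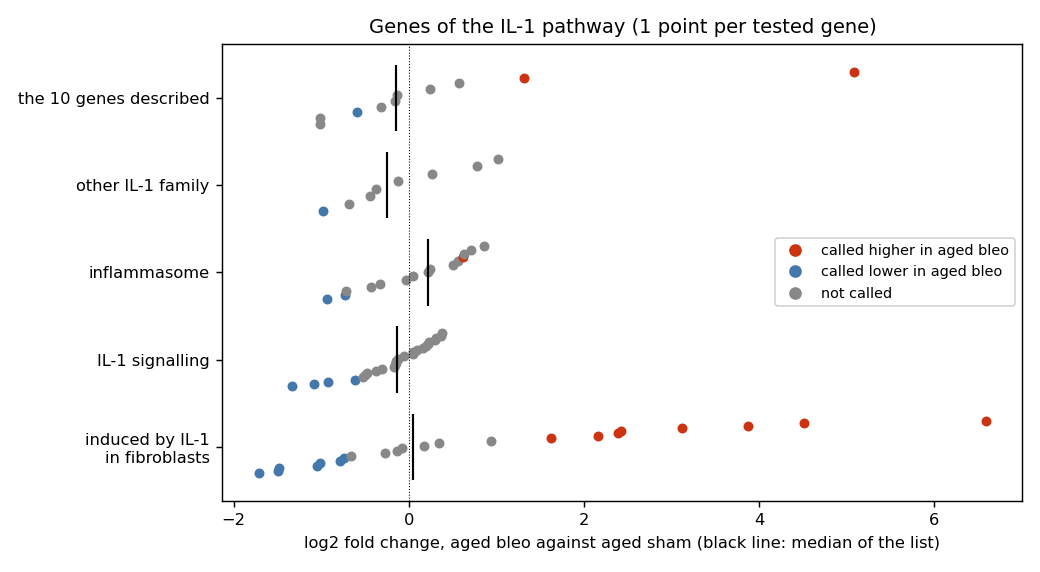
Log2 fold change of each tested gene of the IL-1 pathway lists, 1 point per gene, with the list median as a black line and colours for called genes. The 26 signalling genes lie between -1.33 and 0.38, with 4 called lower, and the genes induced by IL-1 spread from -1.71 to 6.59.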

How the data were processed

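RNA-Seq libraries of sorted Col1a1-GFP lung fibroblasts were grouped by the treatment in their labels, 4 as aged sham and 5 as aged bleo, each from 1 mouse. The authors deposited raw read counts per gene together with FPKM values, scaled by gene length and by a total that was 2.27 to 2.42 times the counted sum. The submitters' processing notes name STAR 2.5.2b, featureCounts and GRCm38. Strand use is not given in the sources used here. All 10 genes have the positions of GENCODE M21, as do 78.9% of shared identifiers.

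Testing used edgeR 4.0.16 in R 4.3.3 (TMM, glmQLFit, glmQLFTest, no covariate) on genes averaging at least 25 counts. Calls followed the study's thresholds (FDR under 0.10, fold change over 1.5), although the study applied a moderated test. The prior count was 2 for log2 CPM and 0.5 for log2 ratios. Alternatives were DESeq2 1.42.0, limma-trend (limma 3.58.1) on log2 CPM, log2(FPKM + 0.1) and log2(FPKM + 1), other scalings and filters, stricter thresholds, left-out libraries, and replicate numbers as a block. The fits were also run on simulated data, and the outcome is not given here.

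The genes and lists were chosen with earlier results of these data known. Named are all 10 genes, up to 4 called genes per list by smallest FDR, and the 3 genes most like each of the 10, of which 1 is not reported here. No libraries were duplicates, since chi-square per degree of freedom was 26.5 to 378 over 16 pairs. A floor of 3 counts corresponds to 0.0409 to 0.0604 CPM, for counting error only.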

Additional observations from a re-analysis of the deposited data

Results flagged for a closer look

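The level of Il1r2 in aged bleo 4 stood apart from the other 4 aged bleo libraries, at 5.97 log2 CPM against 2.30 to 3.33, a gap of 0.721 of the group's whole range. The log2 ratio of Il1r2 to Il1r1 in the same library also stood apart, at -1.35 against -5.54 to -4.86, a gap of 0.837 of the range. These were 2 of 24 groups of values examined for a single distant library, and chance gives about 1 in 20. Aged bleo 4 also had the highest neutrophil and macrophage gene levels of the aged bleo libraries, and their part in these values was not tested.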

How the results depend on the processing

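Of 301 alternative values of the main counts and ratios, 263 kept their direction and size. The Il1rl1 call was kept under every alternative run, and the Il1a call under all but log2(FPKM + 1). Fitted to log2(FPKM + 1) with limma, 1785 genes were called, 960 higher and 825 lower, with 1 of the 10 genes higher, and 0 further inflammasome genes higher and 1 lower. With stricter thresholds (FDR under 0.05, fold change over 2), 2158 genes were called, 1224 higher and 934 lower. Those thresholds left 0 of the 10 genes lower, 0 other IL-1 family genes lower, 0 inflammasome genes in either direction, 2 signalling genes lower and 4 induced genes lower. Limma on log2 CPM also gave 0 inflammasome genes higher. Without a filter, 0 of the 10 genes were lower.

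Leaving out 1 library gave 0 to 2 of the 10 genes lower, 1 to 2 other IL-1 family genes lower, 0 to 2 inflammasome genes higher and 2 to 4 lower. The log2 fold change then ranged from -0.33 to 0.98 for Il1rn and from -0.84 to 0.43 for Nlrp3, and the log2 difference of Il1r2 to Il1r1 from -1.87 (without aged bleo 4) to -0.66. Without aged bleo 4 and aged sham 4 together, 2 of the 10 genes were lower, Il1b at -1.29 (FDR 0.0542) and Il1r2 at -1.71 (FDR 0.0131), 0 inflammasome genes were higher, and the Il1rn to Il1b difference was 1.74. Of the 20 relations, 0 then had an adjusted p under 0.05, and r with the neutrophil level was -0.37 for Il1a, 0.10 for Il33 and -0.30 for Il1rl1, while the pooled r of Nlrp3 with the macrophage level was -0.48. On log2(FPKM + 0.1), the pooled r of Casp1 with the macrophage level was 0.093, and as that level does not overlap between the groups, nothing is read from either. The cause of these changes was not tested.

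The labels do not say whether the replicate numbers shared by the groups pair the mice. Same-numbered libraries correlated at 0.0922, 0.0623, -0.130 and 0.326, and only number 4 correlated best with its own number. So few values cannot settle whether the mice were paired. With the replicate number as a block, 3536 genes were called against 4022, with 2 of the 10 genes lower (Il1b at -0.88, Il1r2 at -1.13) and 0 inflammasome genes higher. The Il1rn to Il1b difference was 1.296 over 4 numbers (exact permutation p = 0.125, the smallest they allow). Low read numbers limit Il1rl1 in aged sham, with 27 to 49 reads per library.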
